A study of Mus musculus with 12 samples.

Results

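The expression of 10 genes that mark hepatocyte dedifferentiation and bile duct (biliary) identity was examined in primary mouse hepatocytes exposed to benzbromarone (BBR), a uric acid-lowering drug, with and without oleic acid (OA), used to load the cells with fat. The genes were Krt7, Krt8, Krt18, Krt19, Sox9, Afp, Spp1, Vim, Lgals1 and Cd24a. They were listed by name, with earlier results of these data known, and all 10 were found among the 22471 features of the deposited tables. Polyadenylated RNA was sequenced in 12 libraries, 3 in each of 4 groups, named here as in the labels. Con received neither agent, ConOA received OA, BBR received benzbromarone, and BBROA received both.

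All groups were hepatocytes from male C57BL/6J mice, freed by collagenase perfusion of the liver, separated on Percoll and cultured in plastic wells. The labels call the tissue liver, and the study's methods give cultured hepatocytes. No genotype or transgene separated the groups, and neither the dose nor the time of exposure is given by the labels. OA was added bound to albumin, and whether Con and BBR cells received albumin alone is not given in the sources used here. The source of the replicates, from different mice or from wells of 1 preparation, is not given either, so the p-values below measure only the spread between labelled replicates, which may be technical. None of the 12 libraries is of freshly isolated hepatocytes, so that levels here could not be set against those of the liver.

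Mature hepatocytes carry a single pair of keratins, the type II protein Krt8 and the type I protein Krt18, which assemble together into the filaments of the cytoplasm. Bile duct cells (cholangiocytes) add the pair Krt7 and Krt19 and depend on the transcription factor Sox9. Hepatocytes that lose their mature state, in injured liver or in culture, can take up genes of bile duct, fetal or mesenchymal cells. Spp1 (osteopontin), Cd24a, Afp (alpha-fetoprotein), Vim (vimentin) and Lgals1 (galectin-1) are used as markers of such states, and several of them are also made by non-parenchymal cells of the liver.

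Total counts per library ranged from 15485508 to 23668379, and between 14732 and 15144 features had counts. A single count was worth 0.0423 to 0.0646 CPM (counts scaled by library size). A library with 0 counts of a gene allows up to 3 counts, or 0.127 to 0.194 CPM, counting error alone considered. Mitochondrial transcripts took 5.5% to 6.07% of the counts in Con, 6.34% to 6.89% in BBR, 5.63% to 6.28% in ConOA and 6.09% to 6.59% in BBROA, so that Con and BBR did not overlap. The part of this in the differences of BBR from Con was not tested. The 6 defining hepatocyte genes, led by Alb (albumin), summed to between 29300 and 37700 CPM in every library, so that defining markers of the cell type given in the study's methods were present throughout.

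On chromosome 15 of the mouse genome (build GRCm38, coordinates from GENCODE), Krt7 lay at chr15:101411043-101430313 on the plus strand. Krt8, at chr15:101996698-102004482 on the minus strand, and Krt18, at chr15:102028180-102032027 on the plus strand, pointed away from each other with 23697 bases between them. Lgals1 lay on the same chromosome at chr15:78926725-78930465, plus strand. Krt19, at chr11:100140810-100148665 on the minus strand, and Sox9, at chr11:112782224-112787760 on the plus strand, shared chromosome 11. Afp, at chr5:90490737-90508907, and Spp1, at chr5:104435118-104441050, were both on the plus strand of chromosome 5, and Afp stood 14134 bases after the end of Alb and 10024 bases before Afm, its neighbours in the albumin gene family. Vim lay at chr2:13573927-13582826 and Cd24a at chr10:43578284-43584265, both on the plus strand. The annotation places other genes over 4 members, Gm671 opposite Krt7, Gm36026 opposite Krt8, Gm43449 opposite Afp and Gm42793 on the strand of Spp1, and holds processed pseudogenes of Krt8 and Lgals1. These were not analysed here, and because the strand setting of the counting is not given in the sources used here, reads from them cannot be told apart from those of the members.

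Upstream sequence was found in RefSeq (GRCm38.p6) for 6 of the 10 members. The 250 bases before the annotated start are shown for the keratin pair that neighbours on chromosome 15 and rose together with OA, and for Spp1, Vim and Afp, which fell with OA. Capitals mark the letters of a TATA box, spelled TATAAA, or those of the shorter element CCAAT, on either strand. The intervals were chr15:102004343-102004592 (minus strand) for Krt8, chr15:102027966-102028215 for Krt18, chr5:104434861-104435110 for Spp1, chr2:13574061-13574310 for Vim and chr5:90490464-90490713 for Afp. For Krt8, Krt18 and Vim, GENCODE extends the gene further upstream than the RefSeq start. They read, 5′ to 3′ on the strand of the gene:
Krt8: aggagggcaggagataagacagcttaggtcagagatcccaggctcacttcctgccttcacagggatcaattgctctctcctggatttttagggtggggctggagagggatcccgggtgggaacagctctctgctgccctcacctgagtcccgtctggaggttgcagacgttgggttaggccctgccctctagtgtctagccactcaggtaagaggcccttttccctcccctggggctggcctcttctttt
Krt18: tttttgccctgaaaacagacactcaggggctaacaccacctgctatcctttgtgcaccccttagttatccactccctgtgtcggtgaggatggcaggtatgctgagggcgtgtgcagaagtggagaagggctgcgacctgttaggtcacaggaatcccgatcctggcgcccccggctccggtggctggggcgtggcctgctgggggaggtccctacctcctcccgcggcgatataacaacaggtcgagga
Spp1: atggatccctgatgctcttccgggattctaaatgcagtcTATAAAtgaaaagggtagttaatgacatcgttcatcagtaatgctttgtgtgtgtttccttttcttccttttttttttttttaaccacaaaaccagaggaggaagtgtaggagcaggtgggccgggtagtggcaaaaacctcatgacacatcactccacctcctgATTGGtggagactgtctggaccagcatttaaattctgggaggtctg
Vim: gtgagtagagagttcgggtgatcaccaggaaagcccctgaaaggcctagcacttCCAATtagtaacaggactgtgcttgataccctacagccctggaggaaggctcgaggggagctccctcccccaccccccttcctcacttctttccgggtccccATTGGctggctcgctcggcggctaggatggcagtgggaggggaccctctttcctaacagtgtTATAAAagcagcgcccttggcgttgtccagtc
Afp: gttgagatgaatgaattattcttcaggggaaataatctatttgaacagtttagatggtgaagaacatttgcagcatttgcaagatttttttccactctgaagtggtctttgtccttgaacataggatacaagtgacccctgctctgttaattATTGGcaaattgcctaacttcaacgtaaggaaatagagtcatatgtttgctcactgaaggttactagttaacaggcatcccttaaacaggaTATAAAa

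Within these windows, Vim held TATAAA 32 bases before the start and CCAAT on the opposite strand 94 bases before it, with a second CCAAT further upstream. Afp held TATAAA 7 bases before its start and an opposite-strand CCAAT at 98 bases. Spp1 had an opposite-strand CCAAT 46 bases before the start and its TATAAA farther away, at 211 bases. Neither motif was found in the windows of Krt8 and Krt18. TGGGAA, the letters of an RBPJ site, occurred 134 bases before Krt8 and in no other of these windows. No GGGCGG (GC box), TGANTCA (AP-1 site) or GGAATG (TEAD site) stood in any of the 5 windows. The window of Krt7, not shown because that gene was at or near 0, held 4 matches of GGGCGG, and the other annotated start of Spp1 is not shown either. Over 27025 mouse promoters, 1 per gene, TATAAA was in 13.0%, CCAAT in 34.5%, TGGGAA in 21.5%, GGGCGG in 32.9%, TGANTCA in 6.87% and GGAATG in 12.6% of windows of the same length, both strands searched, with no overlap between the matches shown. These are matches of letters in a window and not shown binding sites.

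The 10 genes differed in level by several orders of magnitude. Per transcript length, in deposited FPKM averaged over the 12 libraries, Krt18 (2972 FPKM) and Krt8 (2920 FPKM) ranked 22 and 23 among 12742 genes that passed the filter over all libraries, and by read count they took 0.416% and 0.527% of all counts. Vim followed at 343.3 FPKM, Spp1 at 236.4 FPKM and Lgals1 at 95.9 FPKM, ranks 234, 311 and 767. These 5 genes were thus among the better expressed genes of the cultures. Sox9 stood at 10.4 FPKM, Krt19 at 5.50 FPKM, Afp at 3.40 FPKM and Cd24a at 1.40 FPKM, ranks 5642, 7603, 8754 and 10179. Krt7 was at or near 0 in every library, with at most 0.17 FPKM.

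**Figure D1:**
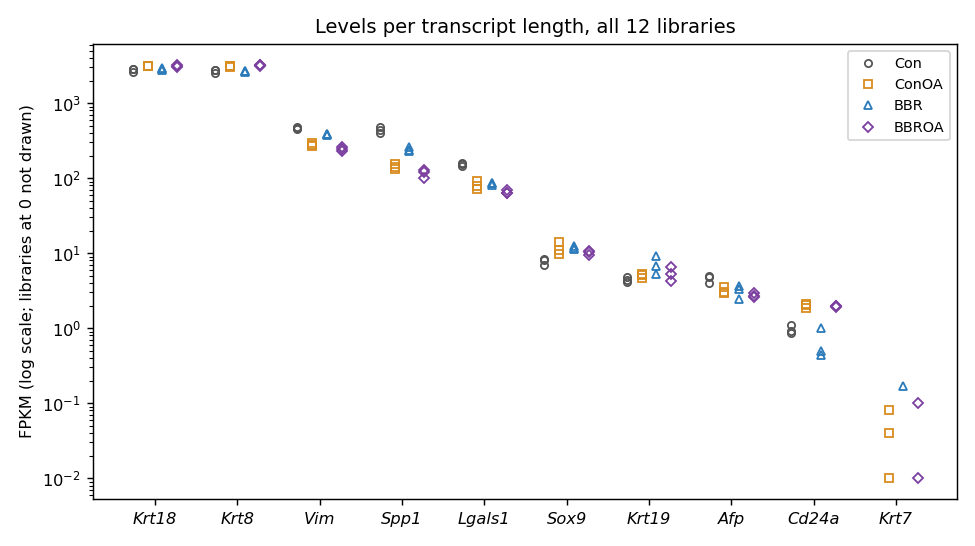
Deposited FPKM (log scale, vertical axis) of the 10 marker genes (horizontal axis, ordered by mean) in each of the 12 libraries, with a symbol for each group. Krt18 and Krt8 lie highest in all groups, and Vim, Spp1 and Lgals1 lie lower. Vim and Spp1 separate by group, whereas for Lgals1 Con lies apart and BBR and ConOA overlap. Krt7 has values above 0 in 6 libraries only, at most 0.17 FPKM.

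Differences between groups were tested with edgeR over all genes that passed the count filter, 9 of the 10 members among them. Krt7 did not pass. Counts of members are read here against the share of all tested genes that passed the same threshold, an adjusted p under 0.05. BBR against Con called 6 of 9 members, 2 higher and 4 lower, where 27.7% of all tested genes were called (13.2% higher, 14.5% lower). With OA in both arms, BBROA against ConOA called 1 of 9, lower, where 4.59% were called (1.95% higher, 2.63% lower). OA alone, ConOA against Con, called 8 of 9, 4 in each direction, where 42.8% were called (21.3% higher, 21.5% lower). OA on top of BBR, BBROA against BBR, called 7 of 9, 3 higher and 4 lower, where 38.9% were called (20.1% higher, 18.8% lower). The difference between the effects of BBR with and without OA, the interaction, was called for 3 of 9 members, where 12.2% were called (6.87% positive, 5.31% negative). Each group enters both an effect of BBR and an effect of OA, so the comparisons are not independent of each other. Below, a change "with BBR" or "with OA" is that of BBR or ConOA against Con unless another group is named.

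Median log2 fold changes of the 9 tested members were -0.27 in BBR against Con, -0.19 in BBROA against ConOA, 0.20 in ConOA against Con and -0.20 in BBROA against BBR, where the medians of all tested genes were between -0.01 and 0. Values of the compared groups did not overlap for 6, 3, 9 and 7 members in that order, against 41.5%, 23.9%, 52.2% and 49.6% of all tested genes. With upper quartile scaling in place of TMM, the share of higher genes among all calls went from 49.8% to 39.2% in ConOA against Con and from 51.7% to 40.8% in BBROA against BBR. That scaling moved the median of all genes by at most 0.05 on the log2 scale, and no member changed direction with it.

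**Figure D2:**
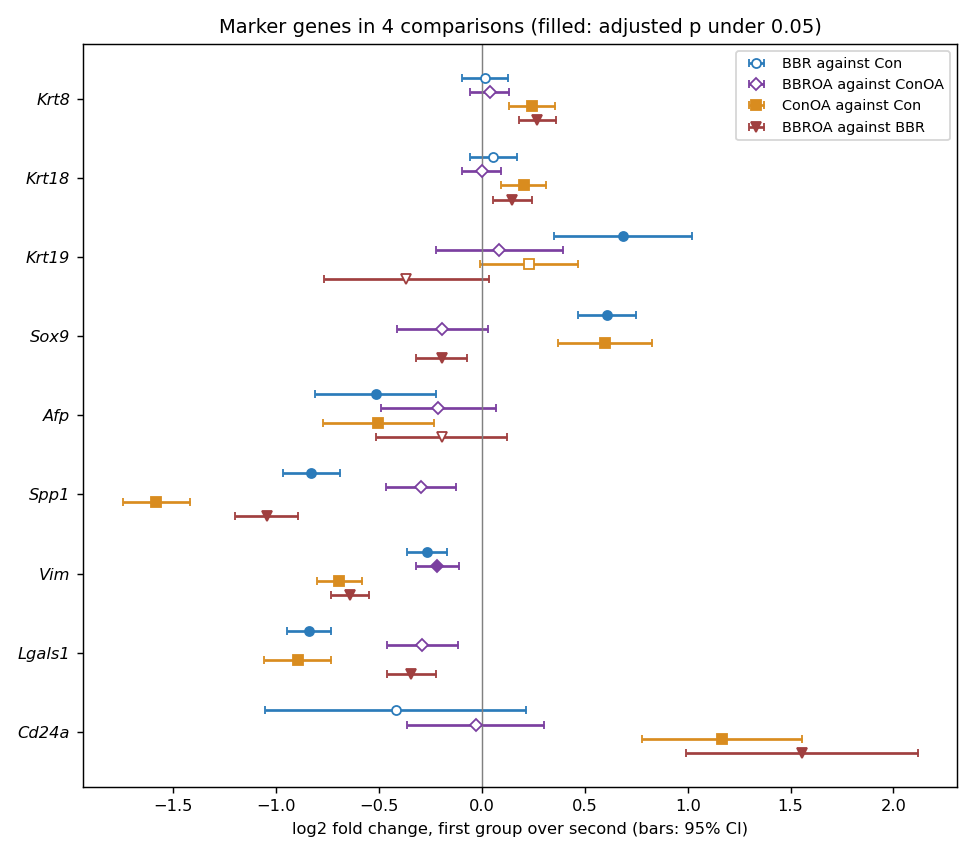
Log2 fold changes (horizontal axis, first group over second) of the 9 tested marker genes in 4 comparisons, from edgeR, with 95% confidence intervals as bars and filled symbols where the adjusted p was under 0.05. Spp1, Vim, Lgals1 and Afp lie left of 0 in all 4 comparisons. Krt8, Krt18 and Cd24a lie right of 0 in both OA comparisons, and Sox9 changes side between the comparisons.

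The keratins of the mature hepatocyte, Krt8 and Krt18, rose with OA and showed no change with BBR that passed the test. Krt8 measured 4891, 4908 and 4591 CPM in Con, 5750, 5662 and 5583 CPM in ConOA, 4836, 4853 and 4757 CPM in BBR, and 5909, 5761 and 5795 CPM in BBROA (CPM scaled by TMM over the 12 libraries, as for all levels below). All 6 libraries with OA lay above all 6 without, and the BBROA libraries lay just above those of ConOA. The rise was 1.18-fold in ConOA against Con (log2 0.24, SE 0.052, adjusted p = 0.00172) and 1.21-fold in BBROA against BBR (log2 0.27, SE 0.043, adjusted p = 0.000179). For BBR against Con the log2 difference was 0.01 with a 95% confidence interval from -0.10 to 0.13, and for BBROA against ConOA it was 0.04 (-0.06 to 0.13).

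Krt18 followed Krt8. Its levels were 3865, 3979 and 3693 CPM in Con, 4435, 4405 and 4404 CPM in ConOA, 3953, 4062 and 3904 CPM in BBR, and 4533, 4351 and 4362 CPM in BBROA. The groups with OA again stood above those without, and within each of these the 2 groups overlapped. Krt18 rose 1.15-fold in ConOA against Con (log2 0.20, SE 0.052, adjusted p = 0.00542). In BBROA against BBR it rose 1.11-fold (log2 0.15, SE 0.044, adjusted p = 0.0158), a call lost with upper quartile scaling (log2 0.11, adjusted p = 0.0722). The interval of the log2 difference with BBR was -0.06 to 0.17 without OA and -0.10 to 0.09 with OA.

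Since type II and type I keratins are built into filaments together, the ratio of Krt8 to Krt18 was followed in deposited FPKM. It averaged 0.968 ± 0.013 (SD, n = 3) in Con, 0.995 ± 0.011 in ConOA, 0.940 ± 0.012 in BBR and 1.02 ± 0.010 in BBROA. The groups of every comparison were separate in this ratio, yet the differences were small, at most 0.12 on the log2 scale in BBROA against BBR. An exact two-sided permutation test over the 3 libraries of each group gave p = 0.1 in all 4 comparisons, the smallest value that this design allows, and 0.1 after adjustment over the 4.

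**Figure D3:**
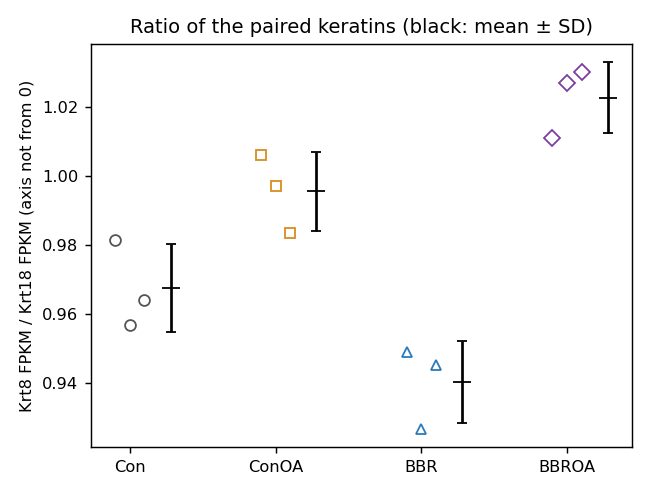
Ratio of Krt8 to Krt18 in deposited FPKM (vertical axis, which does not start at 0) in each library by group, with mean and SD in black. BBR libraries lie lowest, between 0.927 and 0.949, and BBROA libraries highest, between 1.01 and 1.03.

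The bile duct keratins were far scarcer. Krt7 had no counts in the 3 Con libraries, 3, 1 and 1 counts in ConOA, 3, 0 and 0 in BBR, and 0, 2 and 1 in BBROA. No library exceeded the 3 counts that a count of 0 allows, so no fold change is given and no difference was detectable at this depth.

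Krt19 was present in all libraries and rose with BBR. Levels were 7.314, 6.898 and 6.503 CPM in Con, 8.39, 14.5 and 10.6 CPM in BBR, 8.11, 8.45 and 7.61 CPM in ConOA, and 8.31, 10.6 and 6.67 CPM in BBROA. Every BBR library was above every Con library, but the BBR replicates were spread widely and the 2 OA groups overlapped with each other. The rise in BBR against Con was 1.61-fold (log2 0.68, SE 0.16, adjusted p = 0.00392). It remained called without any single library, with log2 values from 0.46 to 0.87. In BBROA against ConOA the log2 difference was 0.09 (95% confidence interval -0.23 to 0.40), and in ConOA against Con it was 0.23 (-0.01 to 0.46, adjusted p = 0.109). BBROA against BBR gave -0.37 (adjusted p = 0.137), a difference that passed the threshold without BBR replicate 1 (log2 -0.55, adjusted p = 0.0221) or without BBROA replicate 2 (log2 -0.55, adjusted p = 0.0499). The interaction was -0.59 (adjusted p = 0.128), and likewise passed without BBR replicate 1 (log2 -0.77, adjusted p = 0.0245) or BBROA replicate 2 (log2 -0.79, adjusted p = 0.0433).

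Sox9, the transcription factor of bile duct cells, was higher with either agent alone, and the effect of BBR differed with OA. Con libraries held 34.4, 33.2 and 29.1 CPM, BBR libraries 48.0, 50.9 and 47.5 CPM, ConOA libraries 46.6, 58.8 and 40.6 CPM, and BBROA libraries 44.4, 43.8 and 39.5 CPM. Con was the lowest group and overlapped with none of the others, whereas ConOA overlapped with BBR and with BBROA. Sox9 rose 1.52-fold in BBR against Con (log2 0.61, SE 0.067, adjusted p = 4.99e-06) and 1.51-fold in ConOA against Con (log2 0.60, SE 0.11, adjusted p = 0.000429). With OA present, BBR gave a log2 difference of -0.19 (95% confidence interval -0.41 to 0.03, adjusted p = 0.334). The interaction of BBR and OA was -0.79 (SE 0.14, adjusted p = 0.000941) and was called without any single library. Sox9 was 1.15-fold lower in BBROA than in BBR (log2 -0.20, adjusted p = 0.0161), but this call was lost without BBR replicate 2 (adjusted p = 0.0649), without BBROA replicate 3 (adjusted p = 0.0777) and in 1 fit on all libraries (adjusted p = 0.127).

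Afp, the serum protein of the fetal liver, was low in all groups and highest in Con. Con libraries held 8.02, 9.85 and 10.2 CPM, ConOA libraries 6.07, 6.23 and 7.40 CPM, BBR libraries 6.83, 5.06 and 7.47 CPM, and BBROA libraries 6.13, 5.55 and 5.36 CPM. No treated library reached the lowest Con library, and the 3 treated groups overlapped in the order ConOA, BBR, BBROA. Afp fell 1.43-fold in BBR against Con (log2 -0.52, SE 0.14, adjusted p = 0.0106), a call lost without Con replicate 3 (adjusted p = 0.0559) or BBR replicate 2 (adjusted p = 0.0505). It fell 1.42-fold in ConOA against Con (log2 -0.50, SE 0.13, adjusted p = 0.00498). The difference of BBROA from ConOA was -0.21 on the log2 scale (-0.49 to 0.07), and that of BBROA from BBR was -0.20 (-0.52 to 0.12). The neighbouring gene Afm, which encodes the albumin family protein afamin, was called in partly other comparisons. Afm fell in ConOA against Con (log2 -0.19, adjusted p = 0.0183) and in BBROA against BBR (log2 -0.37, adjusted p = 0.000938), and its log2 difference in BBR against Con was 0.17 (adjusted p = 0.0912).

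Spp1 showed the largest fall among the members. Osteopontin, its product, is a secreted phosphoprotein of bile duct cells, macrophages and injured hepatocytes. Its levels were 606, 678 and 554 CPM in Con, 363, 337 and 329 CPM in BBR, 186, 204 and 222 CPM in ConOA, and 143, 183 and 174 CPM in BBROA. The 4 groups did not overlap in the order Con, BBR, ConOA, BBROA. Spp1 fell 1.78-fold in BBR against Con (log2 -0.83, SE 0.065, adjusted p = 1.53e-07), 2.99-fold in ConOA against Con (log2 -1.58, SE 0.077, adjusted p = 2.77e-09) and 2.06-fold in BBROA against BBR (log2 -1.05, SE 0.072, adjusted p = 6.43e-08). In BBROA against ConOA the log2 difference was -0.30 (SE 0.080), just outside the threshold with an adjusted p of 0.0504, and between 0.0203 and 0.145 when single libraries were left out. The fall was called with no filter (adjusted p = 0.00265), with DESeq2 (adjusted p = 0.0164) and in 1 fit on all libraries (adjusted p = 0.0494). The interaction was 0.54 (SE 0.12, adjusted p = 0.00501), so that the fall with BBR was smaller where OA was present.

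Vim, the type III intermediate filament of mesenchymal cells, was lower in each treated group. Con libraries held 1000, 989.7 and 956 CPM, BBR libraries 813, 814 and 806 CPM, ConOA libraries 592, 634 and 591 CPM, and BBROA libraries 520, 502 and 543 CPM. As for Spp1, the groups stood apart in the order Con, BBR, ConOA, BBROA. Vim fell 1.2-fold with BBR (log2 -0.27, SE 0.046, adjusted p = 0.000409) and 1.62-fold with OA (log2 -0.69, SE 0.050, adjusted p = 1.08e-07). OA on top of BBR lowered it 1.56-fold (log2 -0.64, SE 0.042, adjusted p = 4.82e-08). In BBROA against ConOA it was the member called, 1.16-fold lower (log2 -0.22, SE 0.049, adjusted p = 0.0229). That call was lost without ConOA replicate 2 (adjusted p = 0.114) and without BBROA replicate 1 (adjusted p = 0.0635), 2 (adjusted p = 0.136) or 3 (adjusted p = 0.0532). Its interaction was 0.06 (95% confidence interval -0.07 to 0.19, adjusted p = 0.605).

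Lgals1 encodes galectin-1, a small secreted lectin that binds galactose-containing sugars. It measured 115.5, 120.8 and 126.4 CPM in Con, 68.8, 63.7 and 68.9 CPM in BBR, 63.8, 56.9 and 73.7 CPM in ConOA, and 51.7, 50.9 and 57.0 CPM in BBROA. Con stood alone at the top, while BBR, ConOA and BBROA overlapped with their neighbours in that order. Lgals1 fell 1.79-fold with BBR (log2 -0.84, SE 0.050, adjusted p = 1.68e-08) and 1.86-fold with OA (log2 -0.89, SE 0.076, adjusted p = 4.64e-07). BBROA was 1.27-fold lower than BBR (log2 -0.34, SE 0.056, adjusted p = 0.000211), and against ConOA the log2 difference was -0.29 (95% confidence interval -0.46 to -0.12, adjusted p = 0.0569). That difference was called with no filter (adjusted p = 0.00727), with DESeq2 (adjusted p = 0.0408), in 1 fit on all libraries (adjusted p = 0.0302) and without ConOA replicate 2 (adjusted p = 0.0264). The interaction was 0.56 (SE 0.10, adjusted p = 0.0013).

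Cd24a encodes a surface glycoprotein of progenitor and bile duct cells and was the member with the largest rise. Its counts were low, between 14 and 75 per library. Con libraries held 1.65, 1.71 and 1.56 CPM, ConOA libraries 3.40, 3.79 and 3.83 CPM, BBR libraries 1.84, 0.897 and 0.806 CPM, and BBROA libraries 3.65, 3.54 and 3.63 CPM. The 6 libraries with OA lay above the 6 without, with overlap inside each of these sets. Cd24a rose 2.25-fold in ConOA against Con (log2 1.17, SE 0.18, adjusted p = 0.000139) and 2.94-fold in BBROA against BBR (log2 1.55, SE 0.26, adjusted p = 0.000312). The log2 difference of BBR from Con was -0.42 (95% confidence interval -1.05 to 0.21, adjusted p = 0.328). Without BBR replicate 1 it was -0.93 and passed the threshold (adjusted p = 0.0395). With OA in both arms, the difference was -0.03 (-0.36 to 0.30).

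**Figure D4:**
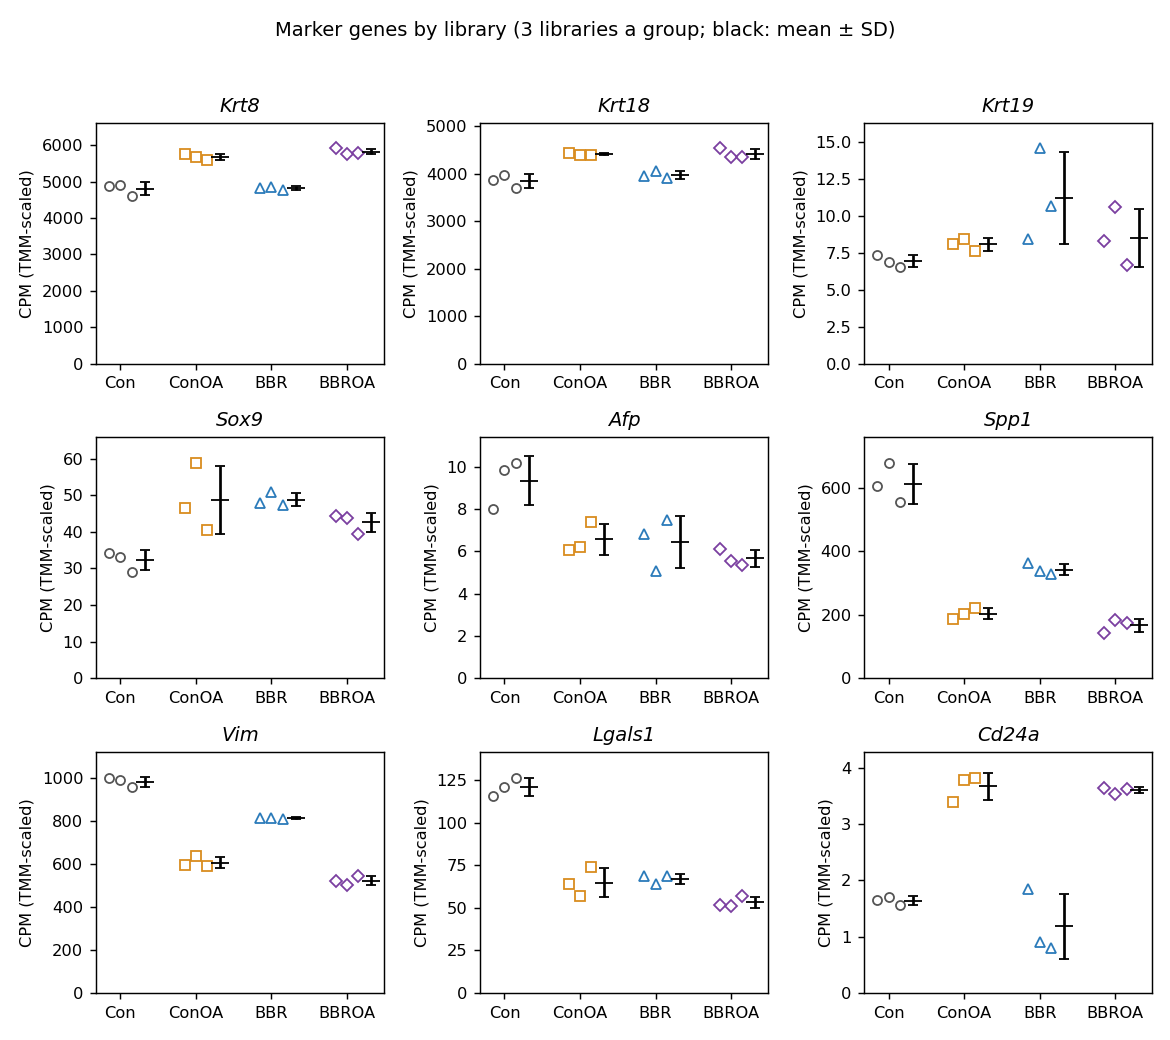
Levels of the 9 tested marker genes (vertical axes, TMM-scaled CPM from 0) in each library, by group (horizontal axes), with mean ± SD of 3 libraries in black. Krt8, Krt18 and Cd24a are higher in both groups with OA, Spp1 and Vim descend from Con through BBR and ConOA to BBROA, and Con is the lowest group for Sox9 and the highest for Lgals1 and Afp.

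Across the 12 libraries, log2 levels of Spp1 and Vim had a Pearson r of 0.97 and Krt8 and Krt18 one of 0.97, whereas Krt8 and Vim had an r of -0.93. Krt19 had an r of 0.64 with Sox9 and of -0.08 with Krt8. These values are descriptive, since the points are 4 groups of 3 libraries and share their treatments. Among 9714 other genes with a mean of at least 5 CPM, the pattern of Krt8 was matched most closely by Kctd3 (r = 0.989), that of Krt18 by Tle1 (r = 0.982) and that of Vim by Clip2 (r = 0.992). Spp1 was matched by Serping1 (r = 0.989), Tm4sf4 (r = 0.988) and Serpina7 (r = 0.985), and Lgals1 by Prpf19 (r = 0.989). For Cd24a the closest gene was Pla2g12b (r = 0.975), for Sox9 Plekhh1 (r = 0.947), for Afp Plekha5 (r = 0.929) and for Krt19 Abhd18 (r = 0.873).

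The members were set beside further genes of the same kinds. Of 19 bile duct genes, 11 were tested in BBR against Con, with 2 higher and 4 lower. Epcam, an adhesion molecule of bile duct cells, rose 1.9-fold (log2 0.92, adjusted p = 0.00146) and the tight junction gene Cldn4 rose 1.5-fold (log2 0.58, adjusted p = 0.000127). Pkhd1, the gene of the fibrocystin of primary cilia, fell 1.52-fold (log2 -0.61, adjusted p = 0.000969) and the transcription factor Onecut1 fell 1.6-fold (log2 -0.67, adjusted p = 0.00594). In ConOA against Con, 1 of 11 was higher and 3 were lower, in BBROA against BBR 1 of 12 was higher and 1 lower, and in BBROA against ConOA 0 of 12 were called. Cldn4 rose with OA (log2 0.29, adjusted p = 0.0074) and fell in BBROA against BBR (log2 -0.48, adjusted p = 0.0015), the same 2 directions as Sox9.

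Defining bile duct markers were scarce. Sctr, the secretin receptor, had no counts in any library, and Cftr, a chloride channel, had at most 1 count. Epcam measured 1.76 to 1.9 CPM in Con, 1.48 to 1.68 in ConOA, 3.18 to 3.78 in BBR and 2.14 to 3.07 in BBROA, so that BBR and Con libraries did not overlap, as for Krt19 and Sox9.

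Of 22 genes of the mature hepatocyte, 21 were tested. BBR against Con gave 4 higher and 8 lower, BBROA against ConOA 0 higher and 1 lower, ConOA against Con 9 higher and 3 lower, and BBROA against BBR 9 higher and 4 lower. Cps1, which encodes the first enzyme of the urea cycle, rose 9.96-fold in ConOA against Con (log2 3.32, adjusted p = 2.36e-12) and fell 1.81-fold in BBR against Con (log2 -0.86, adjusted p = 6.6e-05). G6pc, the last step of glucose release, fell 2.04-fold with BBR (log2 -1.03, adjusted p = 0.00199), and the fatty acid binding protein gene Fabp1 rose 1.51-fold (log2 0.60, adjusted p = 0.00139). Tdo2, of tryptophan breakdown, fell 3.24-fold with OA (log2 -1.70, adjusted p = 5.36e-09). Mature hepatocyte genes thus moved in both directions with either agent.

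Of 17 genes listed for fetal and regenerating liver, 7 were tested. With BBR, 2 rose and 0 fell: Cd44, a hyaluronan receptor, 1.53-fold (log2 0.61, adjusted p = 3.43e-06) and Tnfrsf12a, the receptor of the cytokine TWEAK, 1.19-fold (log2 0.25, adjusted p = 0.0012). OA gave 1 higher, Tnfrsf12a (log2 0.41, adjusted p = 1.32e-05), and 2 lower. The lower genes were Zbtb20 (log2 -0.26, adjusted p = 0.0276) and the albumin family gene Afm (log2 -0.19, adjusted p = 0.0183). The list is not made of fetal markers alone, so these counts are not read as a change of a fetal state. Cd44 fell 1.42-fold in BBROA against BBR (log2 -0.51, adjusted p = 2.4e-05), and in BBROA against ConOA none of the 7 was called.

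Sox9 lies downstream of the Notch and YAP pathways in bile duct cells, and 16 of 19 genes of these pathways were tested. BBR lowered 6 and raised 0 of them without OA, and with OA it lowered 2 and raised 2. Jag1, a Notch ligand, fell in both settings, 1.61-fold without OA (log2 -0.69, adjusted p = 1.72e-05) and 1.54-fold with OA (log2 -0.62, adjusted p = 0.00143). The YAP target Ctgf fell with BBR in both settings as well (log2 -0.55, adjusted p = 5.43e-06, and log2 -0.38, adjusted p = 0.000519). The 2 genes that BBR raised with OA present were Ankrd1 (log2 0.28, adjusted p = 0.00303) and Cyr61 (log2 0.27, adjusted p = 0.0258), so the genes of these pathways had no common direction there. OA raised 7 and lowered 3 genes in each of its comparisons. Ctgf rose 1.93-fold and Ankrd1, a second YAP target, 1.32-fold in ConOA against Con (log2 0.95, adjusted p = 3.57e-08, and log2 0.40, adjusted p = 1.93e-05), whereas Axl, a receptor kinase also known as a YAP target, fell 2.05-fold (log2 -1.03, adjusted p = 0.000655) and Notch1 fell as well (log2 -0.28, adjusted p = 0.0124). Axl also fell in BBROA against BBR, 2.36-fold (log2 -1.24, adjusted p = 7.68e-05).

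Among 18 other intermediate filament and desmosome genes, 15 were tested in 3 of the comparisons and 16 in BBROA against ConOA. BBR raised 3 and lowered 5 without OA and raised 0 and lowered 2 with OA. OA raised 3 and lowered 2 without BBR and raised 7 and lowered 3 with BBR. Krt20, a type I keratin, rose 5.66-fold in ConOA against Con, from 2.83 to 16.1 CPM (log2 2.50, adjusted p = 2e-08). Nes (nestin), a filament protein that pairs with vimentin, fell like Vim, 2.5-fold with OA (log2 -1.32, adjusted p = 5.35e-08) and 1.42-fold with BBR (log2 -0.51, adjusted p = 7.09e-05). Dsp, which anchors keratins to desmosomes, rose 1.3-fold with BBR (log2 0.38, adjusted p = 2.07e-05).

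Of 24 mesenchymal and actin cytoskeleton genes, 4 of 23 tested rose and 6 fell with BBR, 0 of 22 rose and 2 fell in BBROA against ConOA, 8 of 23 rose and 5 fell with OA, and 7 of 22 rose and 4 fell in BBROA against BBR. Among those that rose with BBR, Tuba1a went from 180.3 to 229.7 CPM (log2 0.36, adjusted p = 0.00117) and Anxa2 from 1426 to 1809 CPM (log2 0.35, adjusted p = 0.000125). Acta2, the smooth muscle actin of activated stellate cells, fell 1.96-fold with BBR at a low level, from 2.45 to 1.22 CPM (log2 -0.97, adjusted p = 0.00736). Tagln, also of contractile cells, fell with BBR without OA (log2 -0.77, adjusted p = 0.00114) and with OA (log2 -0.61, adjusted p = 0.0427). Snai1, a transcription factor of the mesenchymal state, fell 2.4-fold with OA (log2 -1.26, adjusted p = 0.0051). S100a10 and Tpm4, which bind annexin and actin, rose 1.66-fold and 1.4-fold with OA (log2 0.73, adjusted p = 1.44e-07, and log2 0.49, adjusted p = 1.23e-06). The fall of Vim was therefore not shared by all genes of this list.

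Lgals1 and Spp1 were compared with 12 matched galectins and osteopontin receptors, of which 10 were tested. BBR gave 2 higher and 2 lower, OA 2 higher and 3 lower, BBROA against BBR 1 higher and 3 lower, and BBROA against ConOA none. Lgals3 (galectin-3) rose 1.39-fold with BBR (log2 0.48, adjusted p = 7.46e-06), where Lgals1 fell, and fell 1.41-fold with OA (log2 -0.50, adjusted p = 2.85e-05), as Lgals1 did. The osteopontin receptor subunit Itgav rose with BBR (log2 0.23, adjusted p = 0.00356) and with OA (log2 0.36, adjusted p = 0.000635), while Itgb5 fell with both (log2 -0.25, adjusted p = 0.000555, and log2 -0.37, adjusted p = 3.56e-05).

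Cell cycle genes were taken as a measure of regeneration, and 10 of 11 were tested. BBR raised 2 and lowered 5 and OA raised 2 and lowered 4, while neither BBROA against ConOA nor BBROA against BBR had a call among the 10. Ccnd1 (cyclin D1) fell 2.03-fold with BBR (log2 -1.02, adjusted p = 0.000268) and 1.8-fold with OA (log2 -0.85, adjusted p = 0.000257). Cdkn1a, the cell cycle inhibitor p21, rose 1.22-fold with BBR (log2 0.28, adjusted p = 0.000283) and 1.36-fold with OA (log2 0.44, adjusted p = 6.55e-06). Pcna, the other gene that rose, did so 1.11-fold with BBR (log2 0.15, adjusted p = 0.0293) and 1.17-fold with OA (log2 0.22, adjusted p = 0.00261).

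**Figure D5:**
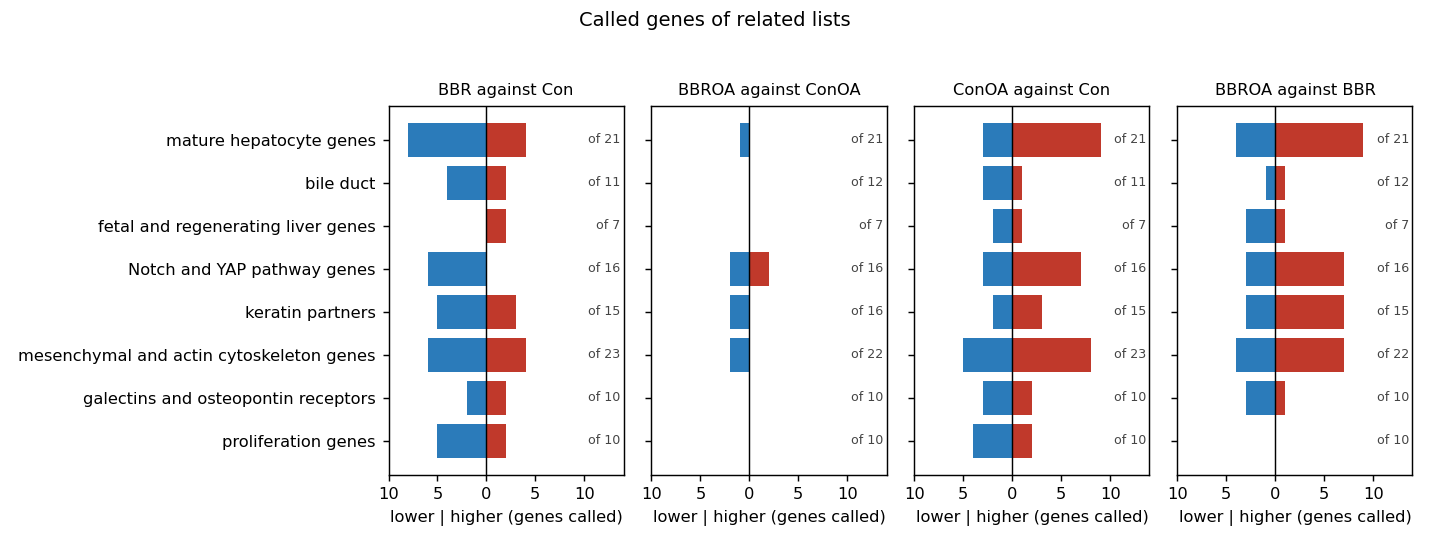
Number of genes called higher (red, to the right) and lower (blue, to the left) in 8 lists of related genes, for 4 comparisons, with the number of genes tested at the right edge of each row. BBR against Con has 8 lower and 4 higher mature hepatocyte genes, ConOA against Con has 3 lower and 9 higher, and BBROA against ConOA has at most 4 calls in any list.

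Several members are also made by other liver cells, and markers of these cells moved with the groups. In bulk samples, fewer cells of a type and less RNA per cell cannot be told apart. The 11 Kupffer cell and macrophage genes summed to 101 to 119 CPM in Con, 110 to 123 in ConOA, 141 to 182 in BBR and 116 to 124 in BBROA, and none was at 0 in all libraries. Cd68, a lysosomal protein, made up most of that sum, with a mean of 80 CPM in Con and 131 CPM in BBR. In ConOA against Con, 3 of 10 tested genes of the list were higher and 6 lower, with a median log2 of -0.53, so the list had no common direction. Means of Adgre1, Marco and Lyz2 were 2.4, 1.2 and 3.55 CPM in Con and 6.37, 6.9 and 11.2 CPM in ConOA. The mean of Cd5l was 5.98 CPM in Con and 2.87 CPM in ConOA. In BBR against Con, 1 gene of the list was higher and 1 lower, with a median of 0.10. The 10 stellate cell and fibroblast genes summed to 51.4 to 58.5 CPM in Con, 51 to 60.1 in ConOA, 51.2 to 55 in BBR and 45.7 to 51.1 in BBROA. Ecm1 and Reln were the largest parts of that sum, with means of 28.6 and 13.3 CPM in Con. Of 6 genes of the list tested in ConOA against Con, 1 was higher and 1 lower, with a median log2 of 0.12. The 8 sinusoidal endothelial genes summed to 63.5 to 67.2 CPM in Con, 59.6 to 71.5 in ConOA, 72 to 74.4 in BBR and 66.8 to 70.6 in BBROA, and in BBR against Con, whose sums did not overlap, 3 of 8 were called higher and 0 lower, with a median log2 of -0.04. Of 4 mesothelial genes, Upk3b, Wt1 and Gpm6a had no counts in any library and the sum never exceeded 0.108 CPM. The 5 leukocyte genes, with Cd3e at 0 throughout, summed to 2.3 to 2.95 CPM without OA and to 5.36 to 7.26 CPM with OA, moving with Cd24a. Itgam, an integrin of myeloid cells, carried that rise, with a mean of 1.18 CPM in Con and 4.6 CPM in ConOA, whereas the means of Ptprc, the common leukocyte antigen, were 1.21 and 1.48 CPM. The part of these cells in the members' differences was not tested.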

How the data were processed

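RNA from 12 libraries of cultured mouse hepatocytes was analysed, grouped by the sample titles. For every one of 22471 features and each library, the authors deposited an FPKM value and an estimated count. The deposited estimated counts need not be whole (2862 features had a fractional count) and were rounded. The deposited FPKM values are scaled by the authors for length and depth and were used to compare levels between genes and, without a count model, for the ratio of Krt8 to Krt18. Per the labels, the genome build was mm10. The aligner, the counting program and its strand setting are not given in the sources used here. Depth, 15485508 to 23668379 counts per library, sets the precision of scarce genes.

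Pairs of groups were compared in edgeR 4.0.16 under R 4.3.3, with only their 6 libraries in the fit: filterByExpr with a minimum count of 10, TMM scaling, the two-sided quasi-likelihood test and Benjamini-Hochberg adjustment over all genes tested (12278 to 12742), with a threshold of 0.05. The interaction used all 12 libraries. Standard errors were derived from the F statistic. Displayed levels are CPM scaled by TMM over the 12 libraries, and correlations used log2 CPM with a prior count of 2. The test was checked on simulated data. Alternatives were RLE and upper quartile scaling, no filter, DESeq2 1.42.0, limma 3.58.1 (voom), a replicate block, a single fit on all libraries, 2-fold thresholds and leaving out each library. Replicates differed by more than counting noise (chi-square per degree of freedom 2.76 to 7.61 over 12 pairs), so none was counted as a repeat.

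The marker genes and the lists set beside them were chosen with earlier results of these data known. All members are named. From each list, the genes named were taken from called genes with a mean of at least 1 CPM. They came from the 2 with the largest rise and the 2 with the largest fall per comparison. Not every gene that met this rule is named. For each member, up to 3 genes with the highest Pearson r among those with a mean of at least 5 CPM were named. H19 and Lgals6 of the lists were not matched and were not analysed here. Coordinates are from GENCODE (GRCm38), in which 99.71% of the Ensembl identifiers were found, and upstream sequences are from RefSeq (GRCm38.p6). Of the cell type markers, which are no members, 1 gene is not reported here.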

Additional observations from a re-analysis of the deposited data

Results flagged for a closer look

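For 3 members the effect of BBR differed between cultures with and without OA by the test of the interaction itself, over all 12 libraries in edgeR. Sox9 had an interaction of -0.79 on the log2 scale (adjusted p = 0.000941): BBR against Con was 0.61 and BBROA against ConOA was -0.19. Spp1 had an interaction of 0.54 (adjusted p = 0.00501), with -0.83 without OA and -0.30 with OA. Lgals1 had an interaction of 0.56 (adjusted p = 0.0013), with -0.84 without OA and -0.29 with OA. The 3 interactions were called without any single library, with values from -0.90 to -0.65 for Sox9, 0.45 to 0.62 for Spp1 and 0.45 to 0.67 for Lgals1. None reached a 2-fold change.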

How the results depend on the processing

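Under all alternatives together, 643 values of single members kept their direction and side of the threshold, 52 lost a call, 17 gained one and 8 reversed. Requiring a 2-fold change, with adjusted or unadjusted p, left 0 members called in BBR against Con, BBROA against ConOA and the interaction, and 2 in ConOA against Con and in BBROA against BBR. In BBROA against ConOA, 3 members were called, all lower, with no filter, with DESeq2 and in 1 fit on all libraries. Of all tested genes, DESeq2 called 203 higher and 274 lower in that comparison. Leaving out single libraries gave 5 to 7 members called in BBR against Con, 0 to 2 in BBROA against ConOA, 8 in ConOA against Con, 6 to 8 in BBROA against BBR and 3 to 4 in the interaction. In that order, these fits called 2598 to 3240, 216 to 632, 4270 to 5273, 4012 to 4378 and 1027 to 1679 of all tested genes. All reversals were of values near 0: Krt18 in BBROA against ConOA was 0.0014 in 1 fit on all libraries and -0.0213 to 0.0097 without single libraries, and Krt8 in BBR against Con (-0.019 to 0.0309), Krt19 in BBROA against ConOA (-0.099 to 0.2283) and Cd24a in BBROA against ConOA (-0.0818 to 0.0047) also crossed 0 there. Over all genes, calls in BBROA against ConOA went from 563 to 249 without ConOA replicate 2 and to 373, 230 and 216 without BBROA replicates 1, 2 and 3, and in the interaction from 1551 to 1027 without ConOA replicate 2 and 1028 without BBR replicate 2. With the 2-fold threshold at adjusted p they were 276, 31, 617, 550 and 161 in BBR against Con, BBROA against ConOA, ConOA against Con, BBROA against BBR and the interaction, and at unadjusted p 297, 73, 624, 567 and 292. Of list counts, 490 stayed within 1.5 times and 150 did not. The 28 alternatives of the keratin ratio kept their direction. The ratio of Krt7 to Krt19 was not computed, because Krt7 had no counts in Con. The cause of these shifts was not tested.

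Neither the labels nor the study's methods say that a replicate number marks a shared mouse, batch or day, so the numbers were not taken to pair the libraries. Deviations of same-numbered libraries correlated between -0.027 and 0.155, over 0.1 in 4 of 18 pairs, and 15 of 18 matched their own number best, a hint from the data that a shared origin is possible. With the replicate number as a block, 3 members were called in BBROA against ConOA, all lower (Spp1, Vim and Lgals1), and 1333 genes against 563. Krt19 was then called in BBROA against BBR (log2 -0.38, adjusted p = 0.0165) and in the interaction (log2 -0.59, adjusted p = 0.0346). Depth limited Krt7, at 3 counts or fewer in each library, and left Cd24a with 14 to 75.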
